A study of Homo sapiens with 36 samples.

Results

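The Krüppel-like factor (KLF) genes KLF2, KLF3, KLF4, KLF5, KLF6, KLF7, KLF9, KLF10, KLF11 and KLF13 were followed in A2780 ovarian cancer cells and their platinum-resistant derivatives. These 10 genes, of 57820 in the count table, were listed because KLF4 rose most when resistant cells were deprived of serine and glycine. That contrast is therefore described and not tested. All 10 were in the table, together with 6 of the 7 other KLF genes that were looked up.

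RNA-seq was performed on 36 libraries, with 3 libraries in each of 12 conditions. The wt cells were the A2780 line, the cis cells were its derivative selected by long exposure to cisplatin, and the cis SSP cells had grown out of cis cells after prolonged culture without serine and glycine. Each line was kept in complete medium or in medium lacking serine and glycine (-SG), and with or without carboplatin (carbo), a platinum drug that damages DNA. Since the study describes its triplicates as technical, p-values here cover the spread between the 3 libraries and nothing beyond it. In bulk RNA, fewer cells with a transcript and less of it per cell cannot be told apart. The deprivation media held dialysed serum. The labels write the carboplatin dose as 6 M, and the methods give day 5 as the usual time point, but neither the true dose nor the day is stated for the sequenced cells. Each derivative is 1 named cell population, so a difference between lines cannot be told apart from a difference between clones. The index sequences of the cis SSP libraries repeat those of the wt libraries, so any effect of a separate pool cannot be told apart from cis SSP.

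KLF proteins are transcription factors that bind GC-rich and CACCC-containing DNA through zinc fingers at their C-terminal end, as the related SP proteins do. KLF2, KLF4, KLF5, KLF6 and KLF7 are mostly activators, KLF3 represses through the CtBP corepressors, and KLF9, KLF10, KLF11 and KLF13 can recruit the Sin3A corepressor. KLF4 is best known as a reprogramming factor and as an activator of the cell cycle inhibitor gene CDKN1A, and KLF10 and KLF11 were first described as early targets of TGF-beta.

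The total count on genes ranged from 13074937 to 20441582 per library. In the check of the labelled tissue, the ovarian and epithelial genes PAX8, KRT7, CDH1 and MUC16 did not exceed 0.574 CPM (read counts scaled to library size with TMM) in any condition mean, and the highest condition means of WT1, EPCAM, KRT8 and KRT18 were 1.16, 1.67, 6.16 and 41.5 CPM. The mesenchymal filament gene VIM was at 1578 CPM or more. PTPRC, CD3E, CD68 and ALB, markers of leukocytes and liver, did not exceed 0.0952 CPM. The fibroblast genes COL1A1 and ACTA2 moved with line and drug: COL1A1 averaged 162 CPM in wt, 859 CPM in wt carbo and 4.02 CPM in cis, and ACTA2 averaged 33.7, 110 and 3.01 CPM in the same conditions. Their part in the results below was not tested. Library 25 of cis SSP and library 32 of cis SSP -SG stood apart from the other libraries of their conditions. KLF2 was 2.05 and 2.51 times its level in the other libraries there, and KLF13 was 0.575 and 0.609 times. Libraries 23 and 24 of cis -SG carbo had the largest shares of reads outside genes, up to 17.9%. Member results that rest on libraries 25 and 32 are given with and without them. Leaving out libraries 23 and 24 leaves only library 22 in cis -SG carbo, so only some log2 values without them are given.

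The sequences just upstream of KLF2, KLF4 and KLF13 are shown as examples. These members were all higher in cis cells without serine and glycine, and each has a single listed start. KLF6 also met both points and is not shown. The windows hold the 250 bases before the RefSeq start (taken from GRCh38.p14), 5′ to 3′ on the strand of the gene, and each matched GRCh37 exactly once, at the coordinates given. Capitals mark GC boxes, GGGCGG or CCGCCC on the opposite strand, a sequence that SP and KLF proteins can bind.
KLF4, chr9:110252051-110252300, minus strand: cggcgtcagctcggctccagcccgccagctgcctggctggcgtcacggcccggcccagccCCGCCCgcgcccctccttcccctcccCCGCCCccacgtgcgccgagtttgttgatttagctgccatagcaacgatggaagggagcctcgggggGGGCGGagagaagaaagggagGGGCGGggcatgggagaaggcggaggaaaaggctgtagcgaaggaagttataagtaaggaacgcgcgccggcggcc
KLF2, chr19:16435387-16435636, plus strand: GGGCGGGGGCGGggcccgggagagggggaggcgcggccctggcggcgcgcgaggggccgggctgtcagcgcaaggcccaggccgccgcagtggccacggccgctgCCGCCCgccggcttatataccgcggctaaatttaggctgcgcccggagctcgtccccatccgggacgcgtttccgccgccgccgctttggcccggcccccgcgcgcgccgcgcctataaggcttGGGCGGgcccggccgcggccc
KLF13, chr15:31618788-31619037, plus strand: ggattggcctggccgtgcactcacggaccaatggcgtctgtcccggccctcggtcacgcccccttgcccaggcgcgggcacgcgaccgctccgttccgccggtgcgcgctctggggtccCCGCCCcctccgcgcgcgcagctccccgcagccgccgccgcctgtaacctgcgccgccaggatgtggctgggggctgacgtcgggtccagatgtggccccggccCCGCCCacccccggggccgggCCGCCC
None of these windows overlapped an annotated exon of its gene. The KLF4 window lay inside the annotated gene, between the exons of a longer transcript. KLF4 and KLF2 each had 4 GC boxes, of which the first 2 of KLF2 were adjacent, and KLF13 had 3. Of the 10 members, 8 had an entry, with 13 windows in all, and 8 of the 13 windows held a GC box. Among the windows of all genes, 42.6% of 35116 held one. KLF3 and KLF10 had no entry. The CRE sequence TGACGTCA was in 1 of the 13 windows, upstream of KLF11, and in 1.65% of all windows.

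KLF4 (ENSG00000136826, GRCh37 chr9:110247133-110252763, minus strand) had the widest range of the family. The level in wt was 0.111, 0.165 and 0.0524 CPM in the 3 libraries, from 6 counts in all. In wt -SG it was 0.345, 0.265 and 0.450 CPM, in cis 0.261, 0.321 and 0.389 CPM, and in cis carbo 0.287, 0.832 and 0.186 CPM. KLF4 was thus close to absent in these 4 conditions, with at most 11 counts in any library. In cis -SG it was 17.1, 16.5 and 19.3 CPM, and in cis -SG carbo 16.2, 14.3 and 15.2 CPM. These were the 2 highest conditions, and neither overlapped any other. The wt carbo libraries were at 4.91, 5.55 and 4.57 CPM and the wt -SG carbo libraries at 6.87, 6.82 and 6.55 CPM. In cis SSP the level was 4.40, 3.26 and 3.61 CPM, in cis SSP carbo 5.50, 6.63 and 6.42 CPM, in cis SSP -SG 7.24, 8.54 and 6.71 CPM, and in cis SSP -SG carbo 9.18, 8.89 and 8.90 CPM. KLF4 was therefore above 1 CPM in wt cells only in the carbo conditions, in cis cells only in the -SG conditions, and in cis SSP cells in all 4 conditions. The highest mean, 17.6 CPM, was 161 times the lowest, and 5 of the 11 pairs of neighbours in the order of conditions overlapped.

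**Figure D1:**
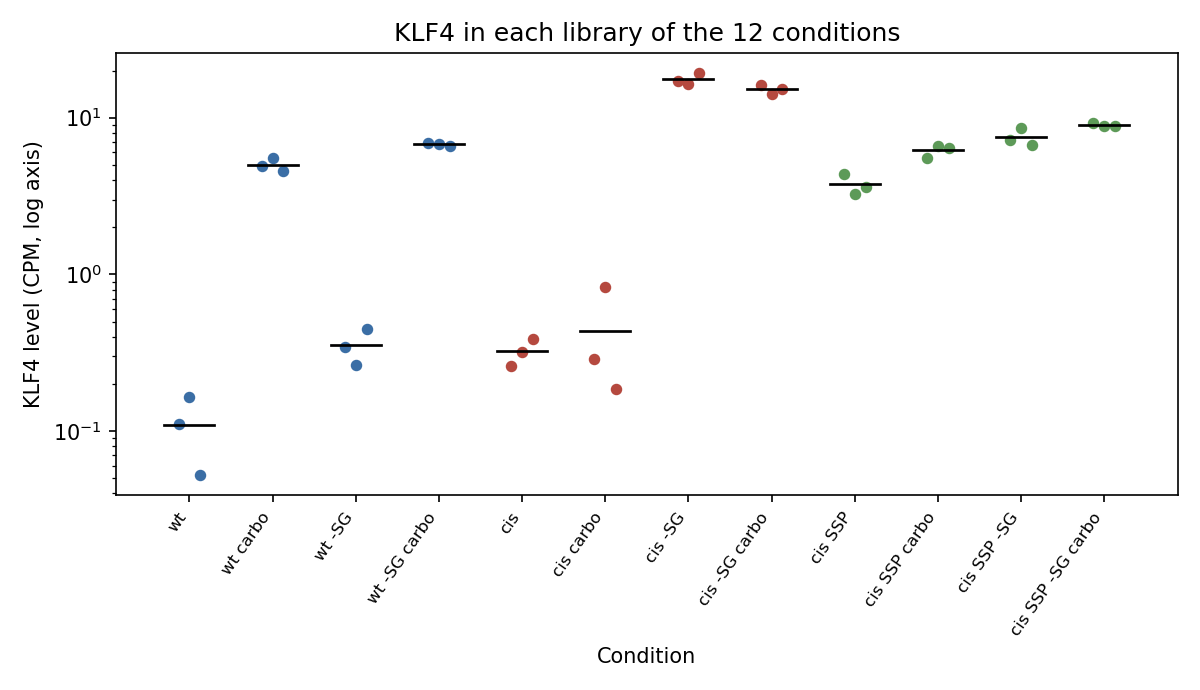
KLF4 level in each library (points) and the mean of each condition (black line), in CPM on a log axis, for wt (blue), cis (red) and cis SSP (green) cells. The 6 libraries of cis -SG and cis -SG carbo sit between 14.3 and 19.3 CPM, above the other 30.

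The other members differed in level and in pattern. Per kilobase of exon, the median over conditions was highest for KLF10 at 24.8 CPM per kb, followed by KLF3 at 14.3 and KLF13 at 12.8. KLF4 was at 1.53 CPM per kb and KLF5 was lowest at 0.126 CPM per kb. KLF7 ranged from 0.377 CPM in cis SSP -SG carbo to 28.7 CPM in cis -SG carbo, a ratio of 76.2 between condition means, and KLF5 from 0.126 CPM in cis SSP to 1.25 CPM in cis -SG carbo. The ratio of the highest to the lowest condition was 6.65 for KLF2, 4.55 for KLF11, 4.30 for KLF10 and 3.25 for KLF13. It was 2.52 for KLF9, 1.99 for KLF6 and 1.98 for KLF3. The highest condition was cis -SG or cis -SG carbo for KLF2, KLF4, KLF5, KLF7, KLF10, KLF11 and KLF13. The cis -SG libraries are behind the choice of members, and the share of all genes highest there is not given. Nothing is therefore read from these peaks. KLF3 and KLF9 were highest in wt -SG, and KLF6 in wt carbo. Over the 12 condition means on a log2 scale, KLF2 and KLF13 were the most alike pair of members (Pearson's r = 0.955) and KLF9 and KLF13 the least (r = -0.935). These points share the 3 lines and are a description.

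Deprivation of serine and glycine in cis cells without carboplatin is the contrast behind the choice of members. The log2 fold change of KLF4 was 5.79, and the ratio of its counts was 54.0 (95% interval 33.6 to 93.0, counting error only). KLF5, which supports epithelial proliferation, differed by 2.55 from 11 counts in cis, KLF2 by 1.12, KLF10 by 0.96 and KLF11 by 0.95. KLF3, KLF13 and KLF7 differed by 0.57, 0.49 and 0.41, KLF6 by 0.10, and KLF9 by -0.13. Values were positive for 9 of 10 members, where 50.8% of all genes tested were positive, and the median of the members was 0.76 against 0.01 for all genes. Nothing is read from this contrast.

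The same deprivation was tested in other libraries of cis cells, those treated with carboplatin. Of the 8 members other than KLF4 and KLF5, 7 rose and KLF9 did not pass the test, against a background in which 35.2% of all genes rose. Their median log2 fold change was 0.48, against 0.01 for all genes. KLF4 and KLF5 had fewer than 10 counts in at least 1 cis carbo library. They passed the filter on low counts only through cis -SG carbo, so they had to differ and are left out of the count. Both are given as values without a test: KLF4 was higher by 5.24 ± 0.24 (log2, SE), with no overlap between the 3 cis carbo and the 3 cis -SG carbo libraries. In counts this was a ratio of 37.5 (95% interval 23.9 to 62.6), from 19 counts in cis carbo to 807. KLF5 was higher by 2.07 ± 0.37, from 14 to 66 counts. KLF2, an activator known from vascular and quiescent lymphoid cells, was at 10.1, 10.4 and 9.93 CPM in cis carbo and at 23.7, 16.3 and 22.3 CPM in cis -SG carbo. All 3 deprived libraries were higher, and the log2 fold change was 1.08 ± 0.14 (adjusted p = 4.33e-05, edgeR). KLF11 was at 23.6, 19.5 and 22.3 CPM and reached 41.6, 36.9 and 41.7 CPM, a rise of 0.91 ± 0.08 (adjusted p = 6.55e-08). KLF7, an activator of neuronal genes, rose by 0.71 ± 0.07 (adjusted p = 3.62e-07), and KLF3 by 0.59 ± 0.05 (adjusted p = 9.79e-08). The rises of KLF10, KLF13 and KLF6 were smaller, at 0.36, 0.34 and 0.26. KLF9 stayed at 17.4 ± 0.70 and 17.2 ± 0.48 CPM (SD, n = 3). Only KLF2, KLF4 and KLF5 exceeded a log2 fold change of 1. Without libraries 23 and 24, which leaves only library 22 in cis -SG carbo, KLF4 was at 5.35 and KLF2 at 1.28.

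Deprivation was also tested in wt cells. Without carboplatin, 2 of the 8 members that passed the filter on low counts rose and 2 fell, and KLF4 and KLF5 did not pass the filter. In this comparison 24.1% of all genes rose and 25.1% fell, so the counts of members were near the shares of all genes. KLF7 was at 5.59, 6.50 and 5.65 CPM in wt and at 14.5, 13.6 and 11.3 CPM in wt -SG, a rise of 1.16 ± 0.11 (adjusted p = 1.68e-08) with no overlap. KLF3 rose by 0.29, from 104 ± 2.52 to 126 ± 4.77 CPM. KLF10 fell by 0.28 and KLF13 fell by 0.19 on the log2 scale. KLF4 had 19 counts in wt -SG against 6 in wt, a ratio of 3.20 with a 95% interval of 1.23 to 9.80. With carboplatin, 0 of 10 members passed the edgeR test in wt cells, where 0.72% of all genes did. At an unadjusted p under 0.05 there were 2 members, and DESeq2 called 0. KLF4 differed by 0.42 ± 0.11 (adjusted p = 0.162). Without the second library of wt -SG carbo 2 members were called, KLF4 at 0.42 (adjusted p = 0.0349) and KLF10 at -0.11 (adjusted p = 0.00777). The share of all genes called in that fit is not given, so nothing is read from this count.

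In cis SSP cells, which were derived under deprivation, few members passed the test. With carboplatin, 1 of the 8 members that passed the filter rose, and 4.93% of all genes did. This was KLF4, which rose by 0.55 ± 0.11 (adjusted p = 0.00130) and whose 3 deprived libraries were all higher. DESeq2 called 0. Without carboplatin, 0 of 8 members passed the edgeR test, against 0.0218% of all genes. There was 1 member at an unadjusted p under 0.05, and DESeq2 called 1. KLF4 differed by 1.01 ± 0.16 (adjusted p = 0.228). The libraries 25 and 32 weigh on this comparison: without them 6 of 8 members rose, KLF4 by 1.03, KLF9 by 0.42, KLF3 by 0.26, KLF11 by 0.23, KLF13 by 0.18 and KLF10 by 0.18. The share of all genes that rose in that fit is not given, so nothing is read from this count. KLF5 and KLF7 did not pass the filter, with at most 14 counts in any cis SSP library.

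The difference between these responses was tested with an interaction term in the carboplatin-treated libraries. Apart from KLF4 and KLF5, all members but KLF9 had a higher response in cis than in wt cells, where 23.4% of all genes did. KLF4 and KLF5 had low counts in cis carbo and had to differ in cis cells alone, so they are left out here too. Their differences, 4.78 ± 0.29 and 2.04 ± 0.52, are given as values. The difference for KLF11 was 1.25 ± 0.15. KLF5 and KLF7 did not pass the filter in cis SSP cells alone and entered the next test only through the cis libraries. KLF4 is left out there as before. Of the members that remain, all but KLF9 had a lower response in cis SSP than in cis cells, where 25.9% of all genes were lower. The value of KLF4, not tested, was -4.68 ± 0.27. The values of KLF5 and KLF7 were -2.89 ± 0.62 and -1.12 ± 0.39, and nothing is read from them. With 1 library left out at a time, KLF7 ranged from -1.32 to -0.81. KLF9 was called in neither, although it passed in the first with total counts in place of TMM. Both tests share the cis carbo and cis -SG carbo libraries. Without libraries 23 and 24, which leaves only library 22 in cis -SG carbo, the value of KLF4 was 4.94 in the first and -4.81 in the second. In the libraries without carboplatin, the response of cis SSP and wt cells differed for 0 of 9 members in edgeR, for 0 at an unadjusted p under 0.05 and for 0 in DESeq2, against 0.671% of all genes. Without library 25 there was 1, and without libraries 25 and 32 there were 4, with KLF10 at 0.45, KLF9 at 0.39 and KLF13 at 0.38 higher and KLF7 at -1.72 lower in cis SSP. The shares of all genes in these fits are not given, so nothing is read from the counts.

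**Figure D2:**
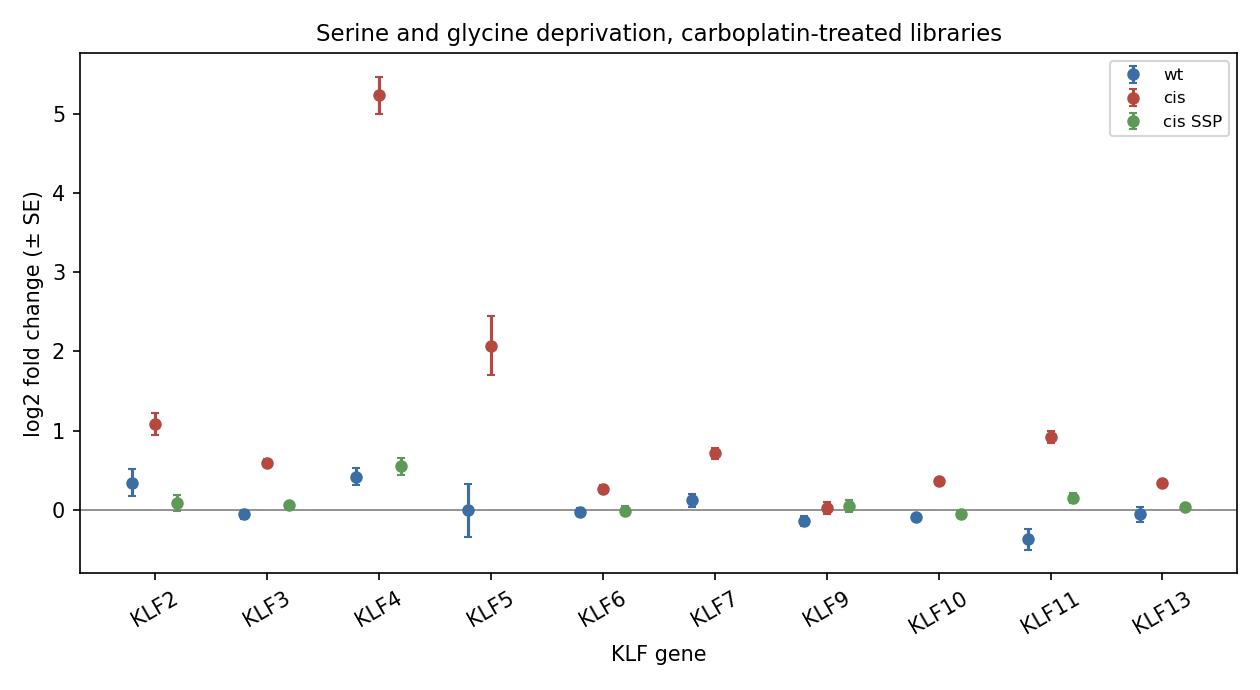
Log2 fold change (± SE) of each member between libraries without and with serine and glycine, all treated with carboplatin, in wt (blue), cis (red) and cis SSP (green) cells. The cis points lie above 0 for all 10 members, with KLF4 at 5.24 and KLF9 at 0.02, while the wt and cis SSP points stay between -0.37 and 0.55. KLF5 and KLF7 have no cis SSP point because they did not pass the filter.

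Carboplatin in wt cells was followed by changes in both directions. KLF4 and KLF5 had fewer than 10 counts in at least 1 wt library in either medium, so they passed the filter through the carbo libraries. Of the other 8 members 4 rose and 2 fell in complete medium, while 38.9% of all genes rose and 39.0% fell. As a value without a test, KLF4 was higher by 5.45 ± 0.31, a count ratio of 46.1 (95% interval 20.9 to 127). KLF10 was at 52.3, 52.2 and 54.5 CPM in wt and at 152, 152 and 150 CPM in wt carbo, and rose by 1.52 ± 0.03 (adjusted p = 8.19e-232). KLF11 moved the other way, from 34.8, 34.8 and 34.3 CPM to 13.3, 14.02 and 12.2 CPM, and fell by 1.39 on the log2 scale (SE 0.06, adjusted p = 5.45e-81). The groups did not overlap for any of these 3 genes, so both TGF-beta-inducible members changed, in opposite directions. KLF7 rose by 0.81, KLF13 by 0.20 and KLF6 by 0.12, and KLF3 fell by 0.10. KLF6, a tumour suppressor candidate, did not pass with total counts in place of TMM (0.06, adjusted p = 0.183), in DESeq2 (0.11, adjusted p = 0.0904) or without the second wt library (0.09, adjusted p = 0.0587). Without serine and glycine, KLF4 was again higher with carboplatin (4.25 ± 0.19, not tested), KLF10 rose (1.71 ± 0.05) and KLF11 fell (-1.84 ± 0.12, adjusted p = 8.06e-07). KLF2 rose by 0.77 and KLF13 by 0.34, and KLF3 and KLF9 fell by 0.44 and 0.17. Apart from KLF4 and KLF5, 3 of 8 members rose and 3 fell, where 34.3% of all genes rose and 34.6% fell. The carbo libraries of the 2 media are different libraries, as are their controls.

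Fewer members passed the test for carboplatin in cis cells, and KLF10 had the largest value. In complete medium KLF10 rose by 0.44 ± 0.03 (adjusted p = 7.23e-11), KLF6 fell by 0.25 and KLF11 fell by 0.19, so 1 of 8 members rose and 2 fell, with 9.27% and 10.8% of all genes. KLF4 and KLF5 did not pass the filter, and KLF4 had 17 counts in cis and 19 in cis carbo. The fall of KLF11 did not pass in DESeq2 (adjusted p = 0.211), nor without any 1 of 5 of the 6 libraries, with log2 values from -0.25 to -0.13 over the 6. Without serine and glycine 3 of the 9 members tested fell, where 11.6% of all genes fell: KLF11 by 0.21, KLF10 by 0.15 and KLF13 by 0.11. Only 1 member was called without the first or second cis -SG library or without library 24. The shares of all genes in those fits are not given. Leaving out both libraries 23 and 24 left only library 22 in cis -SG carbo, so no calls are given for that fit. KLF4 was not tested there and differed by -0.20. The cis and cis -SG libraries of these comparisons were also those of the contrast behind the choice. An interaction term in complete medium gave a different response in cis than in wt cells for 5 of 9 members, 4 lower and 1 higher in cis, with 27.2% of all genes lower and 30.3% higher. The response was lower in cis for KLF10 (-1.08 ± 0.05, adjusted p = 6.51e-29), KLF7 (-1.02 ± 0.13), KLF6 (-0.36) and KLF13 (-0.16), and higher for KLF11 (1.20 ± 0.09, adjusted p = 3.56e-17).

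In cis SSP cells in complete medium KLF10 was at 39.0, 50.1 and 49.2 CPM without and at 89.8, 87.4 and 89.3 CPM with carboplatin. It rose by 0.98 ± 0.13 (adjusted p = 0.0207) and was the only one of 8 members called, where 1.97% of all genes rose. KLF4 differed by 0.76 ± 0.15 (adjusted p = 0.0627). Without library 25, 6 members were called: KLF4 (0.86), KLF10 (0.86) and KLF3 (0.19) rose and KLF9 (-0.53), KLF6 (-0.32) and KLF11 (-0.19) fell. Leaving out any 1 of the other 5 libraries left 0 members called. Without serine and glycine 0 of 8 members passed in edgeR, against 1.47% of all genes, 2 had an unadjusted p under 0.05 and DESeq2 called 2. Without library 32 there were 6 members, of which KLF10 (0.64), KLF4 (0.39) and KLF2 (0.32) rose and KLF9 (-0.90), KLF11 (-0.27) and KLF6 (-0.26) fell. The shares of all genes called without library 25 or 32 are not given, so nothing is read from these counts.

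**Figure D3:**
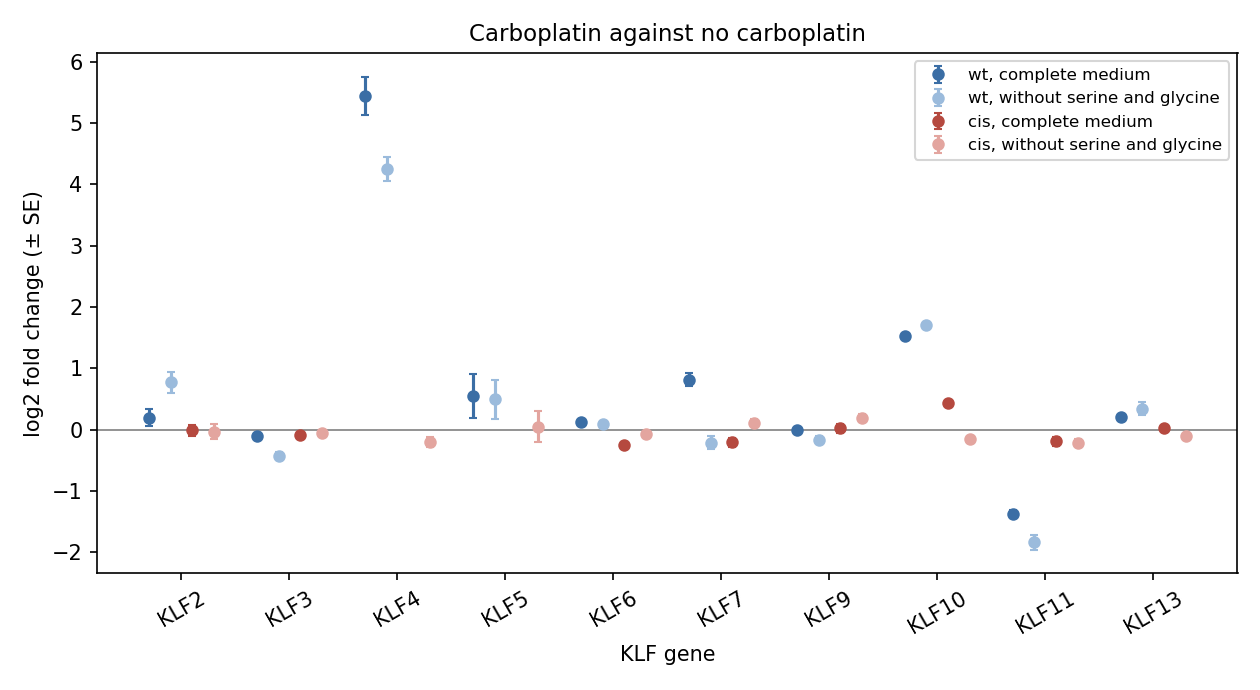
Log2 fold change (± SE) of each member between libraries with and without carboplatin, in wt (blue) and cis (red) cells, in complete medium (dark) and without serine and glycine (light). In wt cells KLF4 lies at 5.45 and 4.25, KLF10 at 1.52 and 1.71, and KLF11 at -1.39 and -1.84, whereas the cis points stay between -0.25 and 0.44. KLF4 and KLF5 have no point for cis in complete medium because they did not pass the filter.

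The lines also differed without any treatment. All 8 members that passed the filter differed between cis and wt cells in complete medium, 4 higher and 4 lower, with 39.4% of all genes higher and 39.1% lower. KLF7 was 1.81 ± 0.09 higher in cis (adjusted p = 2.86e-22), with 22.7, 18.97 and 21.6 CPM against 5.59, 6.50 and 5.65 CPM. KLF2 was higher by 1.43, KLF13 by 1.06 and KLF10 by 0.90. KLF9, which can repress through Sin3A, was lower in cis, at 17.3 ± 1.33 CPM against 37.4 ± 1.07 CPM (log2 fold change -1.13 ± 0.06, adjusted p = 3.88e-21). KLF3 was lower by 0.61, KLF11 by 0.47 and KLF6 by 0.35 (log2 fold changes -0.61, -0.47 and -0.35). KLF4 was not tested here, and both lines were at or under 7 counts per library.

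KLF7 was nearly lost in cis SSP cells. Its counts in the 3 cis SSP libraries were 0, 8 and 14, and in the 12 cis SSP libraries of all conditions they did not exceed 14, whereas the 3 cis libraries had 348, 355 and 389. Against cis the log2 fold change was -5.55 ± 0.50, a count ratio of 0.0216 with a 95% interval of 0.0135 to 0.0329. Against wt it was -3.75 ± 0.53. KLF7 passed the filter here only through the wt and cis libraries, so these are values without a test. Leaving out 1 library at a time gave values from -6.31 to -5.03 against cis and from -4.50 to -3.24 against wt. The values nearest 0 were those without library 25, and the lowest were those without library 27, the third of cis SSP. KLF7 lies on chr2:207938861-208038580 (GRCh37, minus strand). The 11 other protein-coding genes tested within 1 Mb had a median log2 fold change of 0.01 between cis SSP and cis, from -1.35 to 0.81, and 2 of them were called, ADAM23 lower and MDH1B higher. The nearest on either side, FASTKD2 and CREB1, were at 0.01 (adjusted p = 0.965) and -0.52 (adjusted p = 0.129). Among all 13714 genes tested between cis SSP and cis, 3990 were called in either direction. KLF10 was also lower in cis SSP than in cis (-1.14 ± 0.14, adjusted p = 0.00213). Its 8 neighbours within 1 Mb had a median of -0.97, from -5.38 to -0.65, and 7 of them were called. The causes of the KLF7 and KLF10 values were not tested.

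Between cis SSP and cis, apart from KLF7, 1 of the 7 members tested was called, KLF10, and 13.3% of all genes were lower. Without library 25, 6 were called, KLF7 included, and the share of all genes in that fit is not given. KLF10 was then at -1.004. KLF3 (0.60), KLF9 (0.42) and KLF11 (0.40) were higher in cis SSP, and KLF6 (-0.17) was also lower. KLF4, not tested here, was 3.47 higher in cis SSP, with a count ratio of 11.4 (95% interval 6.90 to 19.9), and 3.38 higher without library 25. KLF4 passed the filter against wt only through cis SSP. Apart from KLF4 and KLF7, 2 of 7 members were higher and 2 lower in cis SSP than in wt cells, with 20.7% of all genes higher and 21.7% lower. KLF4 was higher by 4.97 ± 0.31 (not tested), KLF2 by 1.61 ± 0.30 and KLF13 by 0.77 ± 0.24, and KLF7, KLF9 (-0.86 ± 0.15) and KLF6 (-0.65 ± 0.13) were lower. Without library 25, KLF4 was higher by 4.87, KLF2 by 1.21 and KLF13 by 0.997, KLF9 was at -0.72 and KLF6 at -0.54, and KLF10 was also called (-0.12, adjusted p = 0.0156).

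**Figure D4:**
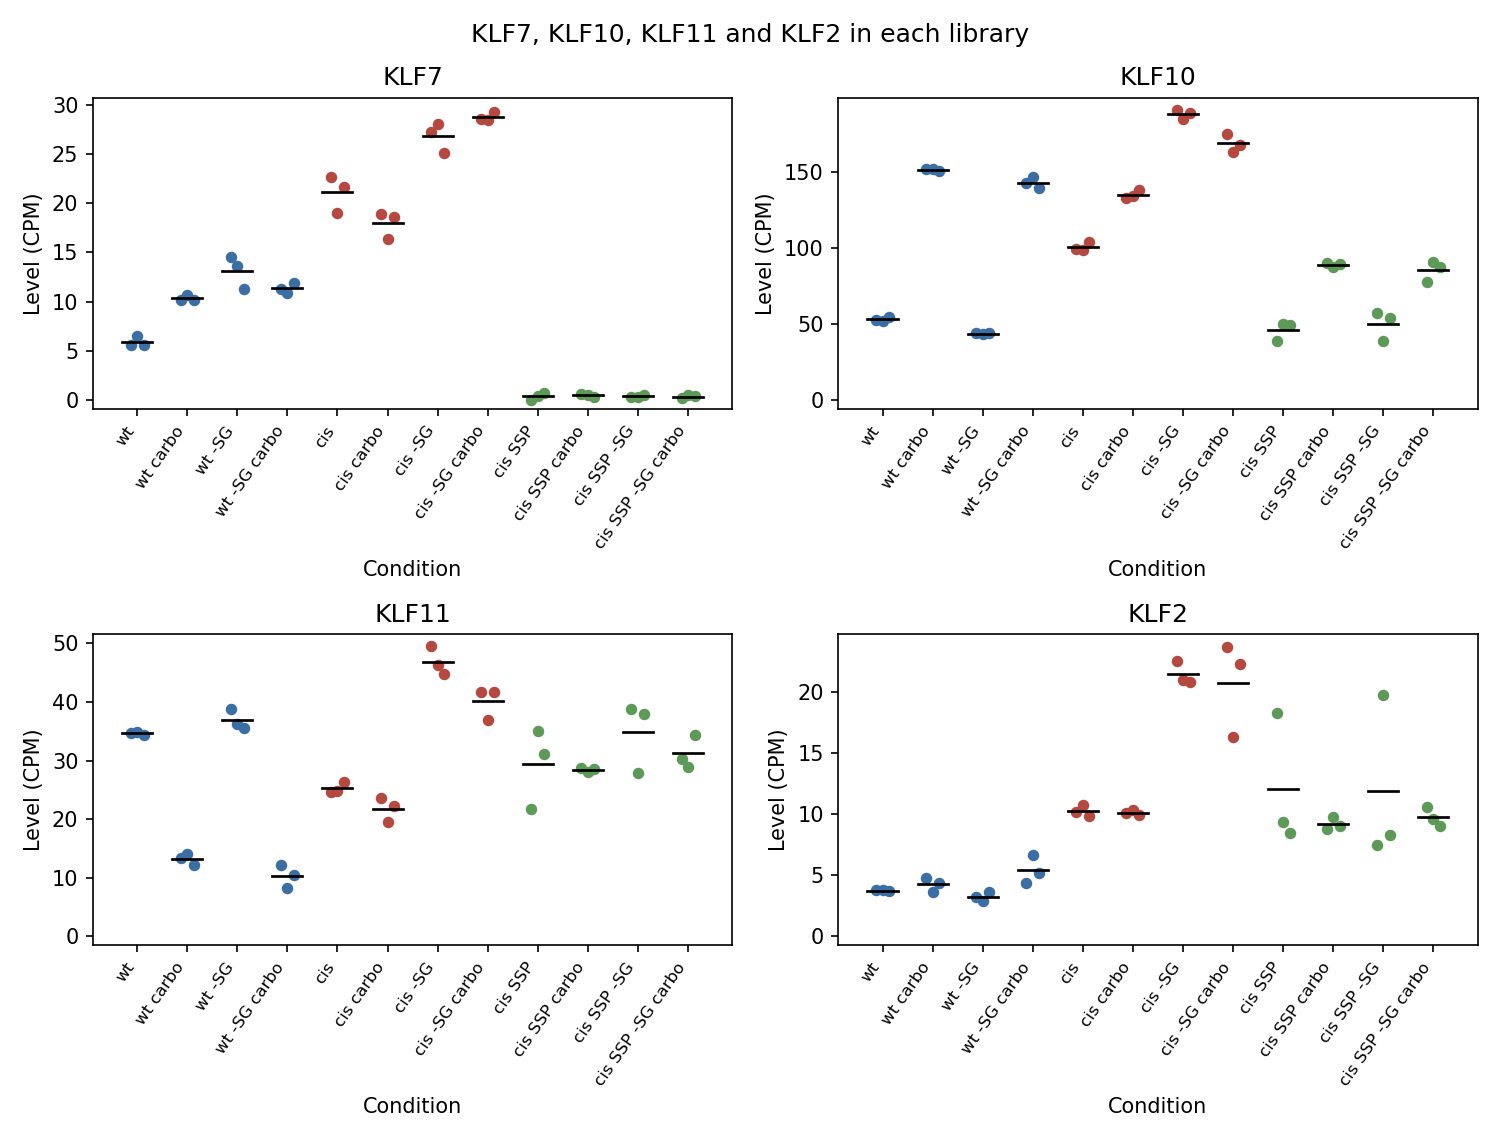
Levels of KLF7, KLF10, KLF11 and KLF2 in each library (points, CPM) with the mean of each condition (black line), for wt (blue), cis (red) and cis SSP (green) cells. KLF7 does not exceed 0.765 CPM in any cis SSP library, KLF10 is higher and KLF11 lower in the wt libraries with carboplatin, and 1 library each of cis SSP and cis SSP -SG is high in KLF2.

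Of the other KLF genes, KLF1, KLF8, KLF12 and KLF17 did not pass the filter in any comparison and KLF14 was not matched by identifier. KLF15 and KLF16 passed. KLF15, a regulator of amino acid and glucose metabolism, fell with carboplatin in wt cells from 7.46 ± 0.19 to 1.21 ± 0.10 CPM (log2 fold change -2.61 ± 0.17, adjusted p = 1.06e-47), and from 14.7 ± 0.32 to 0.793 ± 0.29 CPM without serine and glycine. In cis cells it went from 13.2 ± 0.36 to 9.96 ± 0.14 CPM (-0.39 ± 0.09, adjusted p = 0.00131). Under deprivation with carboplatin in cis cells KLF16 fell by 0.28 and KLF15 was not called. Of 5 SP genes that passed the filter there, 4 rose, where 35.2% of all genes did, among them SP1 (0.51 ± 0.04, adjusted p = 2.05e-08), which competes with KLF proteins for GC boxes.

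Among 19 listed partners and regulators of KLF proteins, 18 passed the filter in cis cells under deprivation with carboplatin. Of these 4 rose and 6 fell, where 35.2% of all genes rose and 4988 of 14236 fell. VHL, the E3 ligase component that targets KLF4 protein, rose from 158 ± 1.42 to 291 ± 11.9 CPM (0.92 ± 0.04, adjusted p = 8.61e-11), and MEF2A, of the MEF2 family that activates KLF2 and KLF4, rose by 0.47. MAPK7 (ERK5), which acts through MEF2 on KLF2 and KLF4, fell by 0.58, and CTBP2, a corepressor of KLF3, fell by 0.47. In wt cells MEF2C was at 239 ± 2.55 CPM and in cis cells at 0.108 ± 0.11 CPM. Carboplatin in wt cells raised 10 and lowered 6 of 19 partners, where 38.9% of all genes rose and 39.0% fell. MEF2D rose by 0.96 and MEF2C fell by 0.77.

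Of 25 genes listed as KLF targets, 23 were matched. Under deprivation with carboplatin in cis cells, 7 of the 17 that passed the filter rose and 7 fell, where 35.2% of all genes rose and 4988 of 14236 fell, and their median log2 fold change was -0.01 against 0.01 for all genes. The cell cycle genes CCNB1 (-1.54 ± 0.04), BIRC5 (-1.49 ± 0.07) and CCNE1 (-0.74 ± 0.05) were lower. Carboplatin in wt cells raised 12 and lowered 6 of 18, beside the same 38.9% and 39.0% of all genes. CDKN1A, the cell cycle inhibitor that KLF4 can activate, went from 140 ± 2.78 to 1777 ± 18.7 CPM (3.67 ± 0.02), CCND1 rose by 1.39, and BIRC5 (-2.00) and CCNB1 (-1.65) fell. In cis cells CDKN1A rose under carboplatin by 1.83 ± 0.03, from 91.1 ± 0.86 to 321 ± 2.53 CPM. KLF4 was at or under 11 counts per library there, and a link between KLF4 and CDKN1A was not tested.

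The genes whose pattern over the 12 condition means was most like that of KLF4, by Pearson's r of log2(CPM + 0.5) among 16677 genes, were FAM167A (0.977), ZNF839 (0.977), NEK8 (0.970), LCA5L (0.968) and PCDH1 (0.958). FAM167A ranged from 0.710 CPM in wt to 17.9 CPM in cis -SG. ZNF839 ranged only from 16.3 to 25.1 CPM, so its likeness is one of shape and not of size. With Spearman's rho 1 of these 5 was among the 5 most alike genes, and with the 36 libraries in place of the means 3 were.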

How the data were processed

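The series holds 36 RNA-seq libraries of A2780 wt, cis and cis SSP cells. The authors deposited raw read counts per gene: per the labels and methods, total RNA libraries were aligned with STAR to GRCh37.p13 and counted with HTSeq on GENCODE annotation. The strand setting of the counting is not given in the sources used here. Antisense and overlapping genes held few counts (378 for KLF3-AS1 against 61003 for KLF3). Rows that name no gene, 4.21% to 17.9% of the counts of a library, stayed out of library sizes and tests. Groups came from the labels. Pairs of libraries of a condition differed by a mean chi-square of 1.20 to 123 per gene, and the highest values were those of pairs with library 25 or 32. Each library counted as 1 in the tests, a choice that does not rest on this range.

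The tests used edgeR 4.0.16 under R 4.3.3 (TMM, filterByExpr, quasi-likelihood test, libraries of the compared conditions only). P-values were two-sided and adjusted by Benjamini-Hochberg over all genes tested, and genes under 0.05 were called. Fold changes are log2, with SE taken as the absolute value over the square root of F. CPM values were scaled by TMM over the 36 libraries. Ratios of counts have exact 95% binomial intervals, which cover counting error only. The tests were tried on simulated data. Alternatives were DESeq2 1.42.0, its size factors, total counts, no filter, a minimum of 10 counts, one fit over all libraries, a fold threshold and leaving out each library. The members and the gene lists were chosen with earlier results of these data known, so lists are described by counts and medians and KLF4 was not tested where cis or cis -SG libraries enter. For a pair of conditions, members that passed the filter only through the higher condition are given as values. In the interactions for deprivation with carboplatin, KLF4, KLF5 and, for cis SSP, KLF7 are given as values too. From the other lists, at most 3 called genes in each direction and comparison could be named, those that changed most while averaging 50 counts or more and having groups that did not overlap. Symbols and positions came from GENCODE release 44 mapped to GRCh37 and promoter sequences from RefSeq. The values of 1 gene of the target list are not reported here.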

Additional observations from a re-analysis of the deposited data

Results flagged for a closer look

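Responses that differed between lines by a test of the difference itself (interaction term, edgeR) are listed with their log2 values. Deprivation with carboplatin gave a higher value in cis than in wt cells for KLF11 (1.25), KLF2 (0.70), KLF3 (0.61), KLF7 (0.55), KLF10 (0.42), KLF13 (0.36) and KLF6 (0.24). KLF4 (4.78) and KLF5 (2.04) had to differ in cis cells alone and are values without a test. The value of KLF2 lost its call in 1 fit over all libraries and without any of 4 single libraries of wt cells. The same response was lower in cis SSP than in cis cells for KLF2 (-0.98), KLF11 (-0.76), KLF3 (-0.52), KLF10 (-0.40), KLF13 (-0.29) and KLF6 (-0.26). KLF4 (-4.68), KLF5 (-2.89) and KLF7 (-1.12) are values without a test. KLF5 and KLF7 passed the filter there only through the cis libraries, and KLF7 had at most 12 counts in the cis SSP libraries of this test.

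The response to carboplatin in complete medium was lower in cis than in wt cells for KLF10 (-1.08), KLF7 (-1.02), KLF6 (-0.36) and KLF13 (-0.16), and higher for KLF11 (1.20), which fell by 1.39 in wt and by 0.19 in cis cells.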

How the results depend on the processing

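No paired analysis was possible because the library numbers run through the whole series and mark no pairs across conditions. The median of the members in cis cells without carboplatin (0.76) was 0.79 with total counts, 0.73 without a filter, 0.56 with at least 10 counts in every library and 0.70 in one fit over all libraries. It ranged from 0.73 to 0.78 with 1 library left out. Counts of members called moved as follows, and they include members that passed the filter only through the higher condition. The shares of all genes called in these alternative fits are not given, so nothing about the members is read from the counts. With a log2 fold change of at least 1 required, they were 1 for deprivation in wt, 3 for deprivation with carboplatin in cis and 0 in cis SSP. They were 3 for carboplatin in wt in either medium and 0 for carboplatin in cis in either medium and in cis SSP. They were 4 for cis against wt and 3 for cis SSP against wt. One fit over all libraries gave 2 and 0 for deprivation in cis SSP without and with carboplatin, 4 for carboplatin in wt and 0 for carboplatin in cis without serine and glycine. It gave 5 and 2 for carboplatin in cis SSP in complete and deprived medium, and 5 for cis SSP against cis. DESeq2 gave 1 and 0 for deprivation in cis SSP without and with carboplatin, and 2 and 2 for carboplatin there. No filter gave 1 for deprivation with carboplatin in wt, and at least 10 counts gave 1 for cis SSP against cis and 3 against wt. With libraries 25 and 32 left out, a choice made after seeing the data, there were 6 for deprivation in cis SSP and 4 for its difference from wt. Leaving out libraries 23 and 24, chosen likewise, left only library 22 in cis -SG carbo, so no counts are given for it.

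With 1 library left out, counts ranged from 0 to 2 for deprivation with carboplatin in wt, 0 to 6 for carboplatin in cis SSP in either medium, 1 to 3 for carboplatin in cis without serine and glycine, 2 to 6 for cis SSP against cis and 0 to 1 for the difference between cis SSP and wt. Where a count moved, the cause was not tested. The shares of all genes in these fits are not given either, so nothing is read from the counts. The count stayed at 9 for deprivation with carboplatin in cis, but it includes KLF4 and KLF5, which had to differ there. KLF4 ranged from 4.85 to 5.97. For both interactions with cis the count was 8 to 9, with the same kind of members included. In these interactions total counts moved values by 0.11 and -0.11. No member that passed a test changed sign. Members that did not pass had the opposite sign in 78 of 1142 alternative values, and 1 of these was called, KLF2 for carboplatin in cis SSP without serine and glycine without library 32 (0.32). KLF4 with 6 to 19 counts in 4 conditions and KLF5 with at most 71 are limited by depth.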
